A study of Mus musculus with 50 samples.

Results

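Frontal cortex of embryos heterozygous for *Setd1a* loss of function (Het) was compared with that of wild-type (WT) embryos at embryonic day 18 (E18), with 5 libraries per genotype. The libraries were chosen by the developmental stage and genotype in their labels, and make up 10 of the 50 libraries of the series, which covers 5 ages. The study asked how partial loss of SETD1A, a risk gene for schizophrenia, alters the cortical transcriptome as the brain develops. Its methods describe Het mice that carry a tm1d loss-of-function allele derived from a knockout-first line, bred from Het fathers and WT mothers, so every cell of a Het embryo carries the allele. The labels give the strain of both genotypes as C57BL/6NTac, whereas the methods describe a mixed background with C57BL/6J and male animals. Frontal tissue from both hemispheres was homogenized, polyadenylated RNA was captured, and all libraries were sequenced as a single batch.

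The deposited values were raw counts of read pairs on the exons of each gene. Total counts were 36899716, 39605075, 38535072, 39945631 and 40712934 in WT replicates 1 to 5. They were 38271029, 38680536, 36570465, 42151510 and 38100123 in Het replicates 1 to 5. How much counting error added to the spread between embryos was not tested. WT replicate 2 went against the described sex: it held 55644 counts of *Xist*, the RNA that silences an X chromosome in female cells, and 11 counts of the Y-linked genes *Ddx3y*, *Kdm5d*, *Eif2s3y* and *Uty* together. In the other 9 libraries *Xist* had 13 counts or fewer and the Y-linked genes 5361 or more. WT replicate 2 was kept, and counts that rest on it are given with and without it. RNA integrity also differed between the groups: Het replicates 2, 3 and 5, that is 3 of 5 Het libraries, had a lower integrity number than every WT library.

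SETD1A is the catalytic subunit of a COMPASS complex, which places methyl groups on H3K4 at the promoters of active genes. Shortly before birth, the mouse cortex is completing neurogenesis, starting to make glia and filling with capillaries that grow toward VEGF released by neural cells. Glycolysis supplies much of the energy of immature neural cells, and hypoxia-inducible factors can raise transcription of both glycolytic enzymes and *Vegfa*.

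The targeted gene was examined first. *Setd1a* (ENSMUSG00000042308, chromosome 7 from 127776670 to 127800122 of GRCm38) had 93.4, 95.6, 94.5, 85.3 and 99.96 CPM (counts scaled to a common library size by TMM) in WT replicates 1 to 5. The corresponding values in Het replicates 1 to 5 were 104, 117, 96.9, 104 and 113 CPM. Het replicate 3 lay within the WT range and the other Het libraries lay above it. The log2 fold change, Het over WT here and throughout, was 0.19 (standard error (SE) 0.0529, n = 5 per group), and it did not pass the test (adjusted p = 0.115, edgeR). A count over all exons does not separate transcripts of the mutant allele from those of the intact allele, so it does not measure the loss of functional message. *Gm49388* (ENSMUSG00000108815, chromosome 7 from 127785608 to 127803802), a readthrough gene whose exonic bases all belong to *Setd1a* or *Hsd3b7*, takes up many of the same read pairs. It had 72.6, 77.0, 78.0, 68.6 and 77.9 CPM in WT and 83.4, 92.3, 79.5, 87.7 and 89.6 CPM in Het libraries. Every Het library lay above every WT library, with a log2 fold change of 0.21 (SE 0.0474, adjusted p = 0.055, edgeR), just outside the threshold of 0.05. *Gm49388* passed under 8 of 26 alternatives, and its log2 fold change over all of them was 0.17 to 0.27. Read pairs of *Setd1a* that were not counted for *Gm49388*, as a lower bound, numbered 796, 727, 661, 696 and 883 in WT and 789, 912, 644, 676 and 892 in Het libraries. These overlapped between the groups, with a log2 difference of 0.10 (two-sided exact permutation test, p = 0.476).

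Across the transcriptome, few genes passed the test at E18. The glycolytic enzyme genes *Gpi1* and *Pfkl* and the angiogenic factor *Vegfa* were among those higher in Het cortex, and the endothelial genes *Aplnr*, *Mmrn1* and *Slc38a5* among those lower. Of 16336 protein-coding genes tested, 18 (0.11%) had an adjusted p under 0.05 by the quasi-likelihood test of edgeR, adjusted by the Benjamini-Hochberg method, and are described as called. Of these, 11 (0.0673%) were lower and 7 (0.0429%) were higher in Het cortex. At an unadjusted p under 0.05 there were 1861 genes (11.4%), 864 lower (5.29%) and 997 higher (6.1%), and with scaling by library size only the balance turned, to 1286 lower and 550 higher. The WT and Het libraries did not overlap for 15 of the 18 called genes, against 360 of all tested genes (2.20%). The exceptions were *Wnt8b*, *Tmem25* and *Rnf213*. Since these are bulk measurements, fewer cells of a type and less RNA per cell cannot be told apart.

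How many genes passed differed widely between alternatives. Without WT replicate 2, 55 genes passed, 44 lower and 11 higher, and all 18 were among them. Without WT replicate 5, 31 passed. Leaving out WT replicate 3 gave 12, with 5 of the 18 among them. The count was 7 without Het replicate 2, 8 without WT replicate 4, and 10 without Het replicate 4 or Het replicate 5. With RNA integrity as a covariate it was 1 (*Gpi1*), with 972 genes at an unadjusted p under 0.05. Without the 3 Het libraries of lowest integrity it was 5, with 1 of the 18 among them. In both of those fits, all 18 genes kept their direction at an unadjusted p under 0.05. DESeq2 called 111 genes and limma-voom 10. When the 10 E18 libraries were fitted alone, without the other ages to help estimate the spread, 0 genes passed by edgeR and 1827 had an unadjusted p under 0.05. Whichever single library was left out, 4 of the 18 genes still passed: *Gpi1*, *Pfkl*, *Mmp28* and *Gm14322*.

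**Figure D1:**
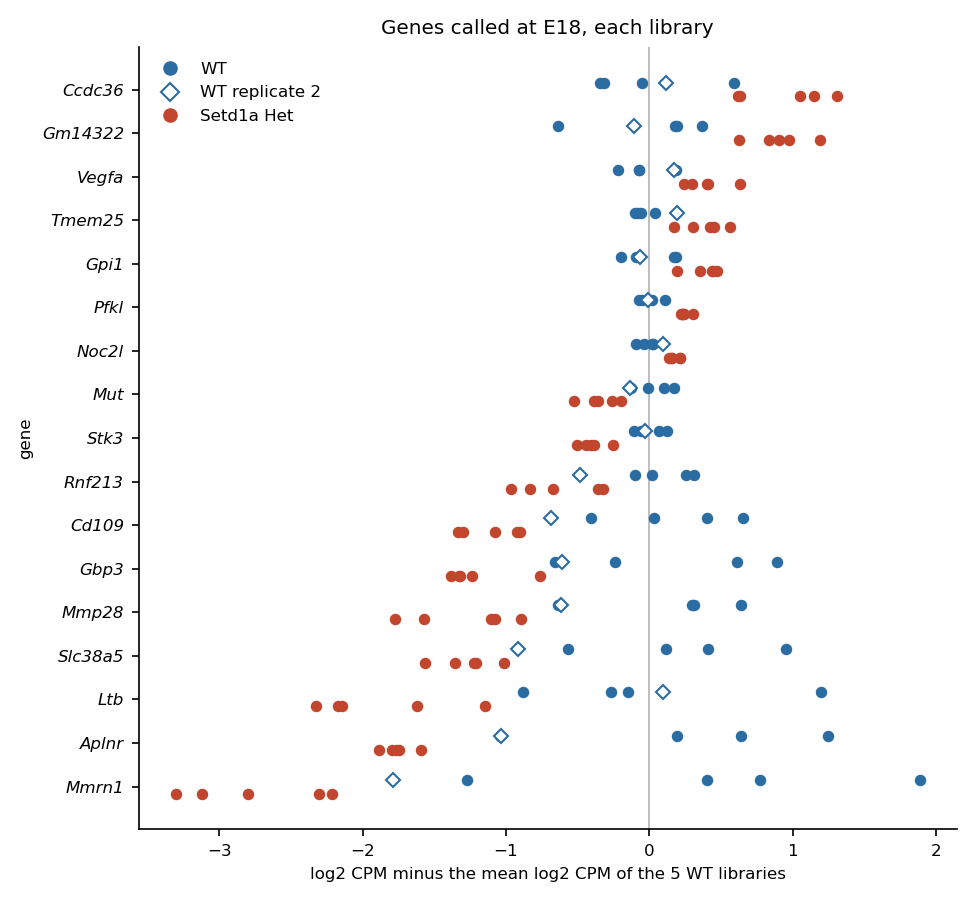
Log2 CPM of 17 called genes in each of the 10 E18 libraries, relative to the mean of the 5 WT libraries for that gene, with WT replicate 2 drawn as a diamond; *Wnt8b*, with 0 counts in most libraries, is left out. WT libraries spread widely for the vascular genes *Aplnr* and *Mmrn1*, whereas Het libraries lie close together below them.

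The gene with the smallest p was *Gpi1* (ENSMUSG00000036427, chromosome 7 from 34201330 to 34230336), which encodes phosphoglucose isomerase, the enzyme that turns glucose phosphate into fructose phosphate early in glycolysis. It had 224, 188, 171, 221 and 184 CPM in WT libraries and 268, 225, 272, 266 and 251 CPM in Het libraries. The lowest Het library, replicate 2, lay just above the highest WT library, replicate 1. Mean levels were 197 ± 23.4 CPM (SD, n = 5) in WT and 256 ± 19.4 CPM in Het, a log2 fold change of 0.38 (SE 0.0546, adjusted p = 0.000266, edgeR). *Pfkl* (ENSMUSG00000020277, chromosome 10 from 77986947 to 78010083) encodes the liver-type subunit of phosphofructokinase, which acts on the product of *Gpi1* and commits sugar to glycolysis. It had 109.7, 113, 108, 122 and 115 CPM in WT and 140.3, 131.97, 133.2, 134 and 134 CPM in Het libraries, again with every Het library above every WT library. Its log2 fold change was 0.25 (SE 0.0460, adjusted p = 0.0124, edgeR). Adjusted p stayed under 0.05 with any single library left out, at 1.63e-05 to 0.00356 for *Gpi1* and 0.00578 to 0.0461 for *Pfkl*. Over all 26 alternatives it ran from 2.2e-07 to 0.867 for *Gpi1* and from 0.000407 to 0.867 for *Pfkl*, with the highest values where the 10 E18 libraries were fitted alone with RNA integrity as a covariate.

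Most other enzymes of the pathway lay on the same side. Of 23 tested genes of glycolysis, 2 were called (*Gpi1* and *Pfkl*), 9 were higher (39.1%, against 6.1% of all tested genes) and 0 lower at an unadjusted p under 0.05, and 2 lay below 0. The 9 higher genes include the 2 called. The list was chosen with earlier results of these data known, so the counts are a description of its members. Their median log2 fold change was 0.13, against 0.02 over all tested genes, and it was 0.09 with scaling by library size only. *Pfkp*, the platelet-type phosphofructokinase subunit, was chosen after its values were seen. It had 406, 323, 381, 317 and 347 CPM in WT and 399.9, 521, 617, 619.8 and 590.4 CPM in Het libraries. Het replicate 1 lay within the WT range and the other 4 Het libraries well above it, with a log2 fold change of 0.63 (SE 0.158, adjusted p = 0.0835, edgeR). *Eno1*, an enolase also chosen after its values were seen, had 339 ± 18.4 CPM (SD, n = 5) in WT and 397 ± 13.4 CPM in Het libraries. Its libraries did not overlap between the groups, but the difference did not pass the test (log2 fold change 0.23, SE 0.0590, adjusted p = 0.0955, edgeR). The members that lay below 0 were *Slc2a1* (−0.33), the glucose transporter of brain capillaries and glia, and *Aldoc* (−0.02), an aldolase of astrocytes.

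Summed over the 23 genes, the glycolysis level was 4238, 4232, 3948, 4267 and 3979.5 CPM in WT and 4690.4, 4624, 4761, 4715 and 4684 CPM in Het libraries, with no overlap. *Gapdh* was the most abundant member, with 17.6% of the sum. With RNA integrity as a covariate, the median log2 fold change of the list was 0.13 with 9 members higher at an unadjusted p under 0.05, and without the 3 Het libraries of lowest integrity it was 0.16 with 10. Without WT replicate 2 it was 0.16 with 11. Without WT replicate 3, without WT replicate 5 or with scaling by library size only, 6 members were higher. Without WT replicate 2 or WT replicate 5, 1 member was lower. In both fits that address integrity the list had 1 call, *Gpi1*, and with scaling by library size only it also had 1. Over 21 alternatives its median was 0.09 to 0.16.

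*Vegfa* (ENSMUSG00000023951, chromosome 17 from 46016993 to 46032369) encodes the secreted growth factor that guides and feeds vessel growth. It had 104, 136, 115, 137 and 114 CPM in WT and 142, 148, 159.9, 187 and 159.4 CPM in Het libraries. The highest WT library, replicate 4, lay just under the lowest Het library, replicate 1. The log2 fold change was 0.39 (SE 0.0817, adjusted p = 0.0274, edgeR). The call was lost without WT replicate 1 (adjusted p = 0.0868), WT replicate 3 (0.0674), Het replicate 4 (0.0911) or Het replicate 5 (0.0554), with log2 fold changes of 0.33 to 0.40, and over all alternatives adjusted p ran from 0.00287 to 0.867 (edgeR, DESeq2 or limma). Among 30 tested hypoxia-inducible genes, *Vegfa* was the 1 called. At an unadjusted p under 0.05, 5 including *Vegfa* were higher (16.7%, against 6.1% of all tested genes) and 0 lower, and 2 of the 30 lay below 0 (*Slc2a1* and *Car12*). Their median was 0.13, or 0.09 with scaling by library size only, where 2 members were higher at that threshold and 6 lay below 0. Without Het replicate 1, or without WT replicates 3 and 4, 2 members were higher, and without WT replicate 3 there were 3. The summed level was 1552, 1624, 1535, 1624 and 1556 CPM in WT and 1789, 1707, 1637, 1711 and 1758 CPM in Het libraries, with *Ldha*, a lactate dehydrogenase subunit, as the most abundant member at 15.3%. The highest WT sum, in replicates 2 and 4, lay just under the lowest Het sum, in replicate 3, while the glycolysis and hypoxia lists share members such as *Pgk1* and *Ldha*.

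The promoters of *Gpi1*, *Pfkl* and *Vegfa* are shown because these are the called genes of both lists. Each runs from 250 bases before to 50 bases after an annotated start and was taken from RefSeq for GRCm38.p6, on the minus strand, at chr7:34230287-34230586 for *Gpi1*, chr10:78009758-78010057 for *Pfkl* and chr17:46032328-46032627 for *Vegfa*. Capitals mark ACGTG and GCGTG, the core letters that hypoxia-inducible factors bind, and GGGCGG, the GC box, on either strand.
*Gpi1*: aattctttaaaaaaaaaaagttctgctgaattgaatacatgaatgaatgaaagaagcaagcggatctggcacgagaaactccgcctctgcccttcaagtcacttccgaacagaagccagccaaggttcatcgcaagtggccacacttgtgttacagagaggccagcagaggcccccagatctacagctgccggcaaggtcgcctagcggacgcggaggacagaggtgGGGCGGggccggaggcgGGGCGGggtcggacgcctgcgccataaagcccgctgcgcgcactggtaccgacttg
*Pfkl*: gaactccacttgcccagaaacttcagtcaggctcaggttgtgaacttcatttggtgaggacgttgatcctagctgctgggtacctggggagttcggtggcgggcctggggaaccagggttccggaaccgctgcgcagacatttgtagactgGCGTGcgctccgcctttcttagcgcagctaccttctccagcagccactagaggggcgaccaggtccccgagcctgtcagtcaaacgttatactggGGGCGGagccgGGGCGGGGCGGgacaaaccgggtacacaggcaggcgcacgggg
*Vegfa*: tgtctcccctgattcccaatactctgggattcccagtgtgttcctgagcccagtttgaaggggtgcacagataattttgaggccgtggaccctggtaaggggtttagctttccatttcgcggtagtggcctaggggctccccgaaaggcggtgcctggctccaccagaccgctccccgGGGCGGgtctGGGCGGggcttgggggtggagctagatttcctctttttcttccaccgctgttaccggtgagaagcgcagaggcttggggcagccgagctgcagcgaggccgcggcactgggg
The *Gpi1* window held 2 GC boxes and neither of the other motifs, that of *Pfkl* held 1 GCGTG and 3 GC boxes, of which a pair overlap, and the one shown for *Vegfa* held 2 GC boxes. A further annotated start of *Vegfa*, with a window at chr17:46025114-46025413 that is not shown, held 1 ACGTG, 1 GCGTG and 1 GC box. The 3 windows shown held 21, 20 and 16 CG pairs, against a median of 18 for the promoters of tested genes. Of 23 glycolysis genes, 22 were found in the promoter table, with 34 promoters, of which 50% held ACGTG, 55.9% GCGTG and 58.8% GGGCGG. Of 30 hypoxia-inducible genes, 25 were found, with 37 promoters, of which 56.8%, 64.9% and 86.5% held these motifs. The shares among the promoters of all tested genes were 23.6%, 46.9% and 57.9%, and among all 32851 promoters known to RefSeq here 19.6%, 32.4% and 35.7%. Each motif contains a CG pair, and promoters had a median of 20 CG pairs in the glycolysis list and 25 in the hypoxia list, against 18 for tested genes. The part of CG content in these shares was not tested. A match describes letters in a window and is no measure of binding.

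**Figure D2:**
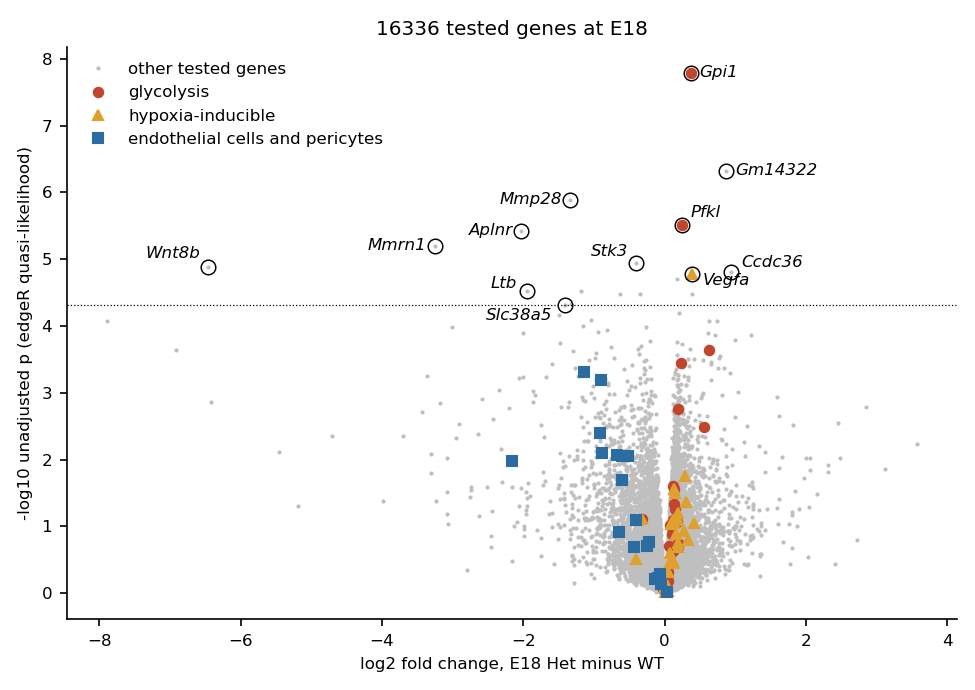
Log2 fold change (Het over WT) and unadjusted p on a log scale for the 16336 tested genes at E18, with the members of the glycolysis, hypoxia-inducible and endothelial lists colored; the dotted line marks the largest unadjusted p among the 18 called genes. Most colored glycolysis and hypoxia points lie right of 0 and most endothelial points left of 0.

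Several of the lower genes are known from vessels. *Aplnr* (ENSMUSG00000044338, chromosome 2 from 85136225 to 85139923) encodes the apelin receptor of growing endothelium, and had 29.6, 12.6, 61.3, 40.2 and 12.5 CPM in WT against 6.98, 7.58, 8.56, 7.70 and 7.45 CPM in Het libraries. WT replicates 3, 4 and 1 were high, whereas WT replicates 2 and 5 lay close to the tight Het group. The log2 fold change was −2.03 (SE 0.384, adjusted p = 0.0124, edgeR), and without WT replicate 3 it was −1.63 (adjusted p = 0.067). *Mmrn1* (ENSMUSG00000054641, chromosome 6 from 60924976 to 60989378), which encodes the endothelial and platelet protein multimerin, had 3.74, 0.820, 10.5, 4.83 and 1.17 CPM in WT and 0.573, 0.326, 0.406, 0.287 and 0.612 CPM in Het libraries. WT replicates 3, 4 and 1 were again the highest. The log2 fold change was −3.25 (SE 0.634, adjusted p = 0.0174, edgeR), and the call was lost without WT replicate 3 (−2.58, adjusted p = 0.0802), Het replicate 2 (−3.16, 0.0866) or Het replicate 4 (−3.12, 0.0536). *Slc38a5* (ENSMUSG00000031170, chromosome X from 8271133 to 8280179), an amino acid transporter of brain endothelium, had 17.2, 8.43, 30.8, 21.1 and 10.7 CPM in WT and 5.36, 7.85, 6.88, 6.21 and 6.81 CPM in Het libraries. WT replicate 2 lay just above the highest Het value. Its log2 fold change was −1.42 (SE 0.314, adjusted p = 0.0446, edgeR), and adjusted p was 0.0553 to 0.188 when any library other than WT replicate 2 or 5 was left out, with the smallest effect without WT replicate 3 (−1.12). *Cd109* (log2 fold change −1.18, SE 0.253, adjusted p = 0.0344, edgeR), a membrane protein that binds TGF-beta, passed without WT replicates 1, 2 or 5 or Het replicate 3 and had adjusted p of 0.0559 to 0.182 without each of the others. Over all alternatives, adjusted p ran from 0.00154 to 0.867 for *Aplnr*, 0.00114 to 0.867 for *Mmrn1*, 0.00429 to 0.867 for *Slc38a5* and 0.00508 to 0.867 for *Cd109*.

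Markers of endothelial cells and pericytes lay on the same side. Of 19 such genes, all with counts in the E18 libraries, 0 were called by edgeR, 2 by DESeq2 and 0 by limma-voom, 9 were lower (47.4%, against 5.29% of all tested genes) and 0 higher at an unadjusted p under 0.05, and 18 lay below 0. Without WT replicate 2, 2 were called (*Tek* and *Tie1*). The median log2 fold change was −0.51. Without WT replicate 3 the median was −0.38 with 4 lower at an unadjusted p under 0.05, and without WT replicate 5 it was −0.66 with 12. *Tek*, the angiopoietin receptor of endothelium, had 17.9, 8.76, 28.2, 19.3 and 9.26 CPM in WT and 7.45, 6.36, 7.53, 7.94 and 8.51 CPM in Het libraries (log2 fold change −1.14, SE 0.304, adjusted p = 0.105, edgeR). Its related receptor *Tie1* differed by −0.90 (SE 0.245, adjusted p = 0.106, edgeR) and *Cldn5*, a tight junction protein of the blood-brain barrier, by −0.92 (SE 0.303, adjusted p = 0.204, edgeR). The summed level of the list was 641, 437, 889, 788 and 418 CPM in WT and 454, 360.4, 449, 498 and 427 CPM in Het libraries, and the pericyte gene *Rgs5* was the most abundant member (16.6%). WT replicates 1, 3 and 4 accounted for the difference in this sum, since WT replicates 2 and 5 lay within the Het range of 360.4 to 498 CPM.

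WT replicates 3 and 4, but not WT replicate 1, were also set apart by markers of choroid plexus and blood. *Ttr*, the transthyretin gene that marks the choroid plexus, had 38, 50, 8889, 7394 and 263 counts in WT and 46, 11, 31, 64 and 32 counts in Het libraries, so that these WT replicates stood far above the other 8 libraries. Summed over 18 choroid plexus and ependyma genes, the level was 85.0, 66.4, 321, 294 and 54.7 CPM in WT and 77.6, 39.04, 75.8, 68.1 and 66.4 CPM in Het libraries, with *Ttr* as the most abundant member (36.1%) and a median log2 fold change of −0.56. The defining gene *Folr1* had 0, 0, 0, 0 and 1 counts in Het libraries and 1, 3, 106, 94 and 5 counts in WT. Of these 18 genes, 0 were called by edgeR, 3 by DESeq2 and 0 by limma-voom. At an unadjusted p under 0.05, 4 were lower (22.2%, against 5.29% of all tested genes) and 0 higher. Globin and erythroid genes (10 of 15 tested) had a summed level of 187, 188, 367, 446 and 169.8 CPM in WT and 225, 172, 229, 161 and 129.9 CPM in Het libraries, led by *Hbb-bs* (45.0%), again highest in WT replicates 3 and 4. Meninges and fibroblast genes (17) summed to 1598, 735, 1514, 1286 and 404 CPM in WT and 1079, 659, 1521, 751 and 763 CPM in Het libraries, led by *Igf2* (25.8%), and 16 lay below 0 with a median of −0.23.

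Each result was therefore fitted again without WT replicates 3 and 4, an alternative chosen after the *Ttr* counts were seen. The median of the endothelial list was then −0.18, with 1 gene lower and 1 higher at an unadjusted p under 0.05 and 14 of 19 below 0. Log2 fold changes were −1.25 for *Aplnr*, −2.11 for *Mmrn1*, −0.87 for *Slc38a5* and −0.77 for *Cd109*, and none of these passed. The median of meninges and fibroblast genes was 0.01, with 7 of 17 below 0. The glycolysis list had a median of 0.16 with 8 members higher and both of its calls, and *Vegfa* had a log2 fold change of 0.43 (adjusted p = 0.0651, edgeR). In all, 8 genes were called, 4 of them among the 18. With RNA integrity as a covariate, the endothelial median was −0.36 with 7 members lower, and without the 3 Het libraries of lowest integrity it was −0.34 with 3 lower. The part of choroid plexus content and RNA integrity in the vascular result was not tested beyond these fits.

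**Figure D3:**
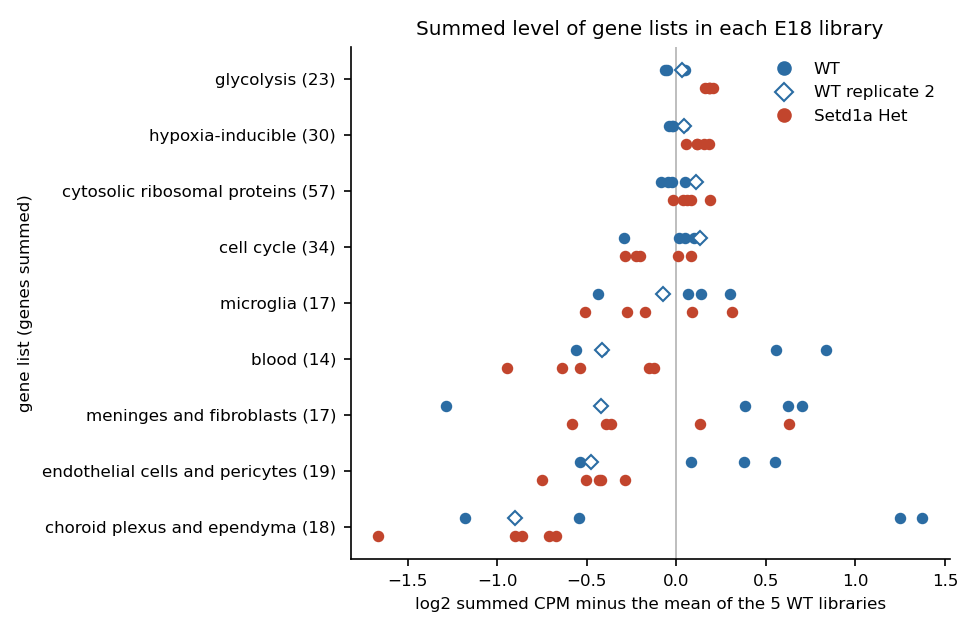
Summed CPM of 9 gene lists in each of the 10 E18 libraries, on a log2 scale relative to the mean of the 5 WT libraries. The glycolysis and hypoxia-inducible sums separate the genotypes, whereas the choroid plexus, blood and endothelial sums are highest in WT replicates 3 and 4.

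Another 4 of the lower genes were *Mmp28*, *Gbp3*, *Rnf213* and *Ltb*. *Mmp28* (ENSMUSG00000020682, chromosome 11 from 83440768 to 83463071), which encodes the matrix metalloproteinase epilysin, had 7.52, 3.94, 9.42, 7.46 and 3.89 CPM in WT and 3.25, 1.77, 2.82, 2.03 and 2.87 CPM in Het libraries. Its groups were separate, and it passed with any single library left out (log2 fold change −1.34, SE 0.239, adjusted p = 0.00716, edgeR, 0.00201 to 0.0426 with a library left out, and 0.000135 to 0.867 over all alternatives). Without WT replicates 3 and 4 its log2 fold change was −1.01 (adjusted p = 0.228). *Gbp3* (ENSMUSG00000028268, chromosome 3 from 142560026 to 142573209), an interferon-induced GTPase, had 3.34, 2.59, 7.31, 6.01 and 2.50 CPM in WT and 1.51, 1.58, 1.57, 2.32 and 1.68 CPM in Het libraries, with WT replicates 3 and 4 highest (log2 fold change −1.33, SE 0.294, adjusted p = 0.0446, edgeR). *Rnf213* (ENSMUSG00000070327, chromosome 11 from 119393100 to 119487418), a large ubiquitin ligase that is linked to the arterial disease moyamoya, had 19.9, 15.3, 26.5, 25.5 and 21.6 CPM in WT and 17.1, 10.9, 11.99, 16.7 and 13.4 CPM in Het libraries. WT replicate 2 lay within the Het range (log2 fold change −0.63, SE 0.137, adjusted p = 0.0344, edgeR). *Ltb*, the lymphotoxin beta chain of the TNF family, rested on few counts, 5, 10, 22, 9 and 8 in WT and 3, 2, 4, 2 and 2 in Het libraries (log2 fold change −1.94, SE 0.417, adjusted p = 0.0344, edgeR). Leaving out WT replicate 3 ended the calls of *Gbp3* (−1.06, adjusted p = 0.188), *Rnf213* (−0.55, 0.145) and *Ltb* (−1.52, 0.188). Leaving out WT replicate 4, Het replicate 2 or Het replicate 5 also ended all 3 calls, Het replicates 1 and 4 ended those of *Gbp3* and *Ltb*, and Het replicate 3 those of *Gbp3* and *Rnf213*. Where a call was lost in this way, adjusted p was 0.052 to 0.188, 0.0966 to 0.185 and 0.0501 to 0.188 for the 3 genes in that order, and over all alternatives it ran from 0.00429 to 0.867, 0.00457 to 0.982 and 0.0191 to 0.478.

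*Wnt8b* (ENSMUSG00000036961, chromosome 19 from 44493472 to 44514273), a ligand made by the cortical hem at the medial edge of the cortex, had 0, 0, 0, 100 and 146 counts in WT and 0, 0, 2, 0 and 0 counts in Het libraries. It was read in WT replicates 4 and 5 and hardly at all in the other 8 libraries, so its call (adjusted p = 0.0265, edgeR) rests on that pair, and it was lost without WT replicate 4 (adjusted p = 0.0945) or WT replicate 5 (0.0552). It was also lost without Het replicates 1, 2, 4 or 5, and adjusted p over all alternatives ran from 0.00457 to 0.512. *Nrp1*, a receptor for semaphorins and VEGF, followed the same libraries. It had 48.3, 56.4, 45.7, 115 and 92.0 CPM in WT and 49.2, 39.2, 25.5, 37.02 and 53.1 CPM in Het libraries, and did not pass (log2 fold change −0.81, SE 0.191, adjusted p = 0.0677, edgeR). Of 32 axon guidance genes, 0 were called by edgeR, 1 by DESeq2 and 0 by limma-voom. At an unadjusted p under 0.05, 4 were lower (12.5%, against 5.29% of all tested genes) and 0 higher, and 19 of the 32 lay below 0 (median −0.07).

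The remaining lower genes showed small, even differences. *Stk3* (ENSMUSG00000022329, chromosome 15 from 34875496 to 35178921), the Hippo pathway kinase MST2, had 12.3, 12.5, 13.4, 13.95 and 11.9 CPM in WT and 10.7, 9.40, 9.77, 9.66 and 9.02 CPM in Het libraries. Every Het library lay under every WT library (log2 fold change −0.40, SE 0.0805, adjusted p = 0.0263, edgeR). *Mut* (ENSMUSG00000023921, chromosome 17 from 40934685 to 40961988), the mitochondrial methylmalonyl-CoA mutase that feeds breakdown products of amino acids and odd-chain fats into the citric acid cycle, had 20.8, 16.8, 18.4, 19.8 and 16.9 CPM in WT and 16.1, 12.8, 14.5, 15.5 and 14.2 CPM in Het libraries. Here too the groups were separate (log2 fold change −0.35, SE 0.0748, adjusted p = 0.0344, edgeR). At P7, *Mut* also passed, with a log2 fold change of −0.33 (SE 0.0746, adjusted p = 0.0191, edgeR). Adjusted p at E18 was 0.052 to 0.11 for *Stk3* without WT replicate 3 or 4 or Het replicate 2, 4 or 5, and 0.052 to 0.185 for *Mut* when any library except WT replicates 2 and 5 and Het replicate 1 was left out. Over all alternatives it ran from 0.00223 to 0.867 for *Stk3* and 0.00508 to 0.905 for *Mut*.

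Besides *Gpi1*, *Pfkl* and *Vegfa*, 4 genes were higher. *Gm14322* (ENSMUSG00000078864, chromosome 2 from 177759288 to 177770472), a zinc finger gene in a cluster of near-identical copies on chromosome 2, had 0.993, 1.43, 1.75, 1.997 and 1.77 CPM in WT and 2.76, 3.04, 2.90, 2.39 and 3.54 CPM in Het libraries. All Het values lay above all WT values (log2 fold change 0.88, SE 0.148, adjusted p = 0.00393, edgeR), and leaving out any single library gave adjusted p of 0.00162 to 0.0279, within 7.05e-05 to 0.867 over all alternatives. Of 15 tested genes of that cluster, *Gm14322* was the 1 called, and 4 including it were higher at an unadjusted p under 0.05 (26.7%, against 6.1% of all tested genes). In the cluster 0 lay below 0, with a median of 0.31, which was 0.13 without Het replicate 4. Read pairs cannot always be assigned among such copies, so the gene behind the difference is uncertain. *Ccdc36* (ENSMUSG00000047220, chromosome 9 from 108403611 to 108428484), known from the start of meiotic recombination, had 2.06, 1.49, 1.10, 1.08 and 1.32 CPM in WT and 3.05, 3.40, 2.84, 2.13 and 2.10 CPM in Het libraries. WT replicate 1 lay just under the lowest Het library (log2 fold change 0.94, SE 0.193, adjusted p = 0.0274, edgeR). *Noc2l* (ENSMUSG00000095567, chromosome 4 from 156235919 to 156247616), a nucleolar inhibitor of histone acetylation, differed little in size but steadily, at 119, 125, 113, 109 and 118 CPM in WT and 128, 135, 129.6, 130.00 and 135 CPM in Het libraries (log2 fold change 0.17, SE 0.0361, adjusted p = 0.0296, edgeR). *Tmem25* (ENSMUSG00000002032, chromosome 9 from 44793769 to 44799307), an immunoglobulin-like membrane protein of neurons, had 14.7, 16.3, 13.4, 13.7 and 13.5 CPM in WT and 16.1, 19.5, 21.1, 19.2 and 17.6 CPM in Het libraries. Het replicate 1 lay under WT replicate 2, and the groups otherwise separated (log2 fold change 0.39, SE 0.0835, adjusted p = 0.0344, edgeR). Where a single library ended these calls, adjusted p was 0.0501 to 0.137 for *Ccdc36* (WT replicates 3 and 4, Het replicates 1 and 2), 0.052 to 0.14 for *Noc2l* (WT replicates 3 and 4, Het replicates 2, 4 and 5) and 0.0501 to 0.137 for *Tmem25* (any except WT replicate 2 and Het replicate 1). Over all alternatives it ran from 0.00223 to 0.867, 0.00223 to 0.867 and 0.00153 to 0.867.

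Markers of the cortex matched the labeled tissue in both groups. All 14 cortex identity genes were tested, and their summed level was 2886, 3428, 2965, 2265 and 3183 CPM in WT and 2947, 3494, 2776, 2848 and 3615 CPM in Het libraries. Of the 14 genes, 0 were called by edgeR, DESeq2 or limma-voom, and 2 were lower at an unadjusted p under 0.05 (14.3%, against 5.29% of all tested genes). These were the cortical patterning factors *Emx2* (−0.39, adjusted p = 0.265, edgeR) and *Lhx2* (−0.37, adjusted p = 0.291, edgeR). Genes of thalamus, hypothalamus and hindbrain summed to 245, 269, 234, 189 and 412 CPM in WT and 321, 286, 250.2, 194.7 and 195.7 CPM in Het libraries, led by *Zic1* (65.7%), and the hindbrain genes *Hoxa2*, *Hoxb3* and *Hoxb5* had no counts. Striatal genes summed to 978, 1073, 1179.8, 908 and 1357 CPM in WT and 1195, 1312, 1133, 1729.7 and 901 CPM in Het libraries, led by *Meis2* (39.3%), and 3 of 20 lay below 0 (median 0.21). Olfactory bulb genes summed to 929, 887, 472, 758 and 507 CPM in WT and 843, 509, 579.8, 626 and 683 CPM in Het libraries, led by *Nrp2* (26.0%), with 9 of 14 below 0 (median −0.11). All of these sums overlapped between the groups.

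Among the lists of neural cell types and synapses, 0 genes were called by edgeR, DESeq2 or limma-voom, and some members had an unadjusted p under 0.05. All 34 cell cycle genes lay below 0, with a median of −0.13, but 1 of them had an unadjusted p under 0.05 and the summed level overlapped (1094, 1185, 1118, 885 and 1157 CPM in WT and 1090.1, 1146, 888, 927 and 940.2 CPM in Het libraries), with *Top2a* most abundant (8.86%). The median of this list was −0.16 with scaling by library size only and −0.09 with RNA integrity as a covariate. Intermediate progenitor genes had 10 of 13 below 0 (median −0.14) with 0 at an unadjusted p under 0.05. Radial glia genes had 14 of 19 below 0 (median −0.05), with 4 lower at that threshold (21.1%, against 5.29% of all tested genes) and 0 higher. With RNA integrity as a covariate, or without the 3 Het libraries of lowest integrity, 0 radial glia genes were lower by edgeR. Without WT replicate 4 or Het replicate 3, 1 was lower. For deep layer neurons, 7 of 17 lay below 0 (median 0.02, and below 0 with scaling by library size only), for upper layer neurons 5 of 15 (0.06), for interneurons 7 of 21 (0.09) and for Cajal-Retzius cells 8 of 9 (−0.17). Markers of oligodendrocyte lineage had 6 of 15 below 0 (0.07), astrocytes 10 of 16 (−0.01) and microglia 12 of 17 (−0.11). Synaptic genes lay mostly above 0: 5 of 29 genes of presynaptic release lay below 0 (median 0.08), with 2 higher at an unadjusted p under 0.05 (6.90%, against 6.1% of all tested genes), and 5 of 28 glutamate receptor and scaffold genes lay below 0 (median 0.10), with 0 at that threshold. With RNA integrity as a covariate, the presynaptic median was 0.03 with 10 of 29 below 0 and 0 higher by edgeR. With scaling by library size only, 12 of 29 lay below 0, and in each of these fits 10 of 28 glutamate receptor and scaffold genes did. Over all tested genes, 44.2% lay below 0, and with scaling by library size only 9370 of 16336 did, with a median of −0.02.

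Many of these medians lay close to 0 and depended on single libraries. Over 21 alternatives, the medians of 23 of the 39 lists changed sign, 13 of them with a single library left out, whereas those of glycolysis, hypoxia-inducible, endothelial and cell cycle genes did not. For microglia the median was 0.06 without WT replicate 3 (6 of 17 below 0) and 0.16 without WT replicates 3 and 4 (3 of 17). For astrocytes it was 0.07 without WT replicate 4 and 0.04 with RNA integrity as a covariate. For olfactory bulb genes it was 0.07 without WT replicate 2 (4 of 14 below 0), and 0.25 without the 3 Het libraries of lowest integrity. The upper layer median was −0.03 without WT replicate 4, that of striatal genes −0.01 without Het replicate 4, and that of interneurons −0.03 without WT replicates 3 and 4. Without the 3 Het libraries of lowest integrity, Cajal-Retzius genes had a median of 0.00267.

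**Figure D4:**
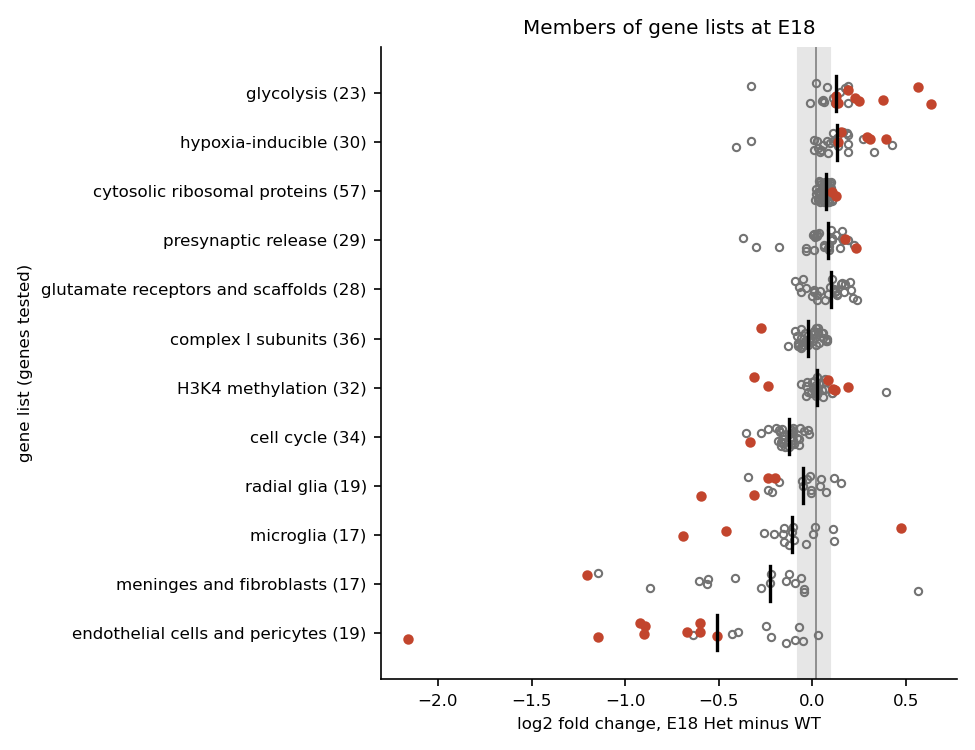
Log2 fold change (Het over WT) at E18 of each tested member of 12 gene lists, with members at an unadjusted p under 0.05 in red, the list median as a black bar and the interquartile range of all tested genes as a grey band. Endothelial members scatter below 0, whereas glycolysis and hypoxia-inducible members cluster just above it.

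Genes of mitochondria and of protein synthesis had list medians of −0.03 to 0.07. Of 36 nuclear complex I subunits, 0 were called by edgeR, DESeq2 or limma-voom and 1 had an unadjusted p under 0.05, *Ndufc1*, with 28.03, 31.5, 25.9, 28.9 and 31.5 CPM in WT and 24.4, 24.7, 24.9, 23.8 and 22.6 CPM in Het libraries. Its groups did not overlap and its log2 fold change was −0.28 (SE 0.0836, adjusted p = 0.159, edgeR), against −0.30, −0.25, −0.16 and −0.29 at the other ages (E14, P7, P35, P70). List medians were −0.02 for complex I subunits, −0.02 for 17 complex I assembly factors, 0.000534 for 38 subunits of complexes II to V, 0.02 for 30 mitochondrial carriers and 0.03 for 13 mitochondrially encoded messenger RNAs. In the same order, the shares at an unadjusted p under 0.05 were 2.78%, 11.8%, 2.63%, 16.7% and 15.4%, against 11.4% of all tested genes. Among carriers 1 was lower and 4 were higher, and among mitochondrially encoded genes 2 were higher. The medians for complexes II to V, carriers and mitochondrially encoded genes lay below 0 with scaling by library size only. Without WT replicate 2 those of complex I subunits and assembly factors lay above 0 (0.00288 and 0.02). For complex I subunits the median was −0.06 with scaling by library size only (30 of 36 below 0, against 21 as reported). It was −0.04 with RNA integrity as a covariate (29 below 0) and −0.04 without the 3 Het libraries of lowest integrity (26 below 0). Mitochondrial aminoacyl-tRNA synthetases, which charge the tRNAs of mitochondrial translation, had a median of −0.03. Of 17, 3 were lower and 3 higher at an unadjusted p under 0.05 (35.3%, against 11.4% of all tested genes). The higher genes included *Aars2* (0.23, adjusted p = 0.115, edgeR), and with RNA integrity as a covariate 1 was lower and 3 higher. All 57 cytosolic ribosomal protein genes lay above 0 (median 0.07), with 2 at an unadjusted p under 0.05, while with scaling by library size only 11 lay below 0 and the median was 0.04. Mitochondrial genes took 1.19% ± 0.0369 (SD, n = 5) of counts in WT and 1.23% ± 0.0827 in Het libraries, a difference of 0.0413 points (two-sided exact permutation test, p = 0.333), and the 100 most abundant genes differed by 0.291 points (p = 0.159).

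Writers, erasers and readers of H3K4 methylation were tested as the family around the targeted gene. Of 32 genes, 0 were called by edgeR, DESeq2 or limma-voom. At an unadjusted p under 0.05, 2 were lower and 4 higher (18.8%, against 11.4% of all tested genes). In all, 9 lay below 0 (median 0.03, below 0 with scaling by library size only or without WT replicates 3 and 4). Without WT replicate 2, 1 was lower and 6 higher, with 6 below 0 and a median of 0.05. The list contains the Y-linked *Kdm5d* (log2 fold change 0.39), which had 4 counts in WT replicate 2. *Zcwpw1*, a reader of H3K4 methylation, had a log2 fold change of −0.31 (SE 0.110, adjusted p = 0.245, edgeR), against −0.66, −0.54, −0.43 and −0.39 at E14, P7, P35 and P70. *Cxxc1*, the COMPASS subunit that binds CpG islands, differed by 0.12 (SE 0.0448, adjusted p = 0.287, edgeR). Stress programs gave medians near 0: 0.05 for 19 p53 targets, −0.00428 for 25 heat shock and unfolded protein genes, 0.00102 for 27 immediate early genes and 0.04 for 23 genes of cholesterol synthesis. The signs of these medians depended on the alternative, for immediate early genes in 15 of 21 fits. Collagens of fibrils and cartilage had 3 of 11 below 0 (median 0.12, and 0.02 without WT replicate 5), and 7 genes that differ between C57BL/6 substrains had a median of 0.04 with 0 at an unadjusted p under 0.05. A further 5 genes were looked up by name and were not called at E18. Their log2 fold changes were −0.37 for *Syt2*, −0.06 for *Ndufa3*, 0.03 for *Sema4c*, 0.06 for *Pura* and −0.02 for *Mrpl16*, and *Kng1* had no counts.

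Whether an E18 difference was unlike those at other ages was tested directly, as the E18 log2 fold change minus the mean of the 4 log2 fold changes at E14, P7, P35 and P70. At E14, WT replicate 5 held 60159 counts of *Xist* and 0 of the Y-linked genes, so this contrast contains a further library against the described sex. In all, 6 of 16336 genes (0.0367%) passed, 3 lower and 3 higher (0.0184% each), and 1762 (10.8%) had an unadjusted p under 0.05. DESeq2 called 93 and limma-voom 3. Without WT replicate 2 at E18, 89 genes passed, without WT replicate 5 84, without Het replicate 2 or Het replicate 5 1, and without WT replicate 3 or Het replicate 4 0 by edgeR, with 1334 and 1801 at an unadjusted p under 0.05. Without both libraries with *Xist* counts, an alternative chosen after seeing the data, 284 passed. With RNA integrity as a covariate 0 passed by edgeR, with 806 at an unadjusted p under 0.05.

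Of these 6 genes, 5 were also called at E18. *Gpi1* had log2 fold changes of 0.13, 0.01, 0.05 and 0.05 at the other ages (E14, P7, P35, P70), and its E18 value exceeded their mean by 0.32 (SE 0.0610, adjusted p = 0.0243, edgeR). *Aplnr* went the opposite way at E14, with 1.05, 0.02, −0.24 and 0.96 at the same ages and a difference of −2.47 (SE 0.458, adjusted p = 0.0207, edgeR). *Mmp28* was also above 0 at E14 (0.54), with a difference of −1.30 (SE 0.265, adjusted p = 0.0345, edgeR). For *Ltb* the difference was −2.25 (SE 0.451, adjusted p = 0.0345, edgeR) and for *Tmem25* 0.46 (SE 0.0931, adjusted p = 0.0345, edgeR). *Col11a2*, a chain of type XI collagen, was not called at E18, where it had 18.9, 23.5, 18.9, 21.6 and 24.3 CPM in WT and 17.8, 32.5, 28.2, 31.0 and 21.7 CPM in Het libraries. Its E18 log2 fold change of 0.29 stood against −0.20, −0.59, −0.62 and −0.71 at the other ages (difference 0.82, SE 0.145, adjusted p = 0.0164, edgeR).

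**Figure D5:**
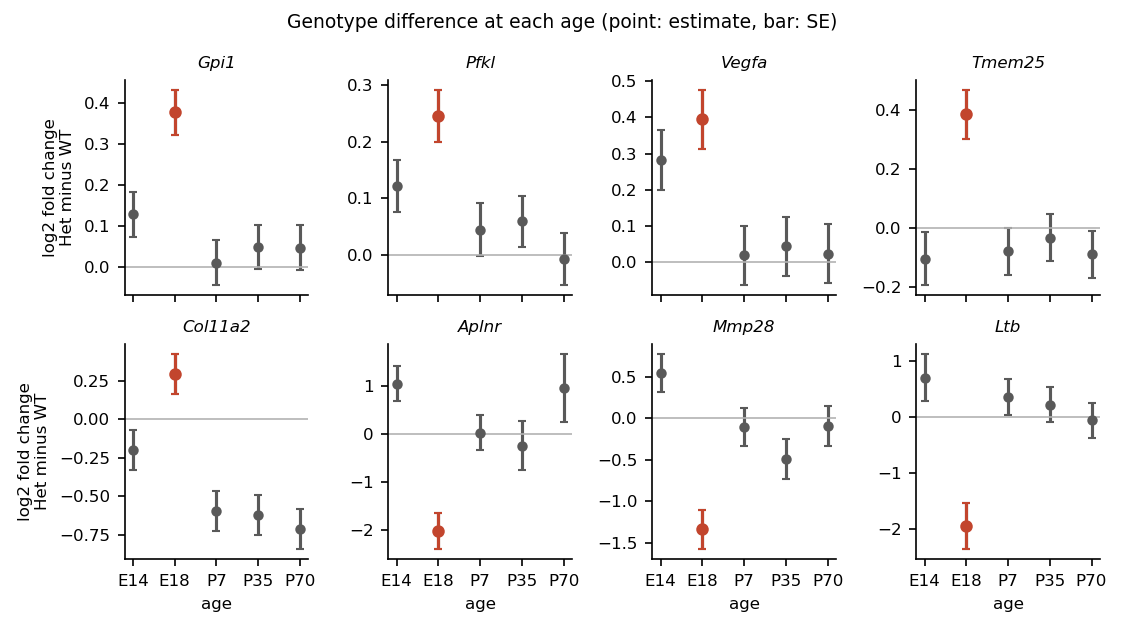
Log2 fold change (Het over WT) with its standard error at E14, E18, P7, P35 and P70 for 8 genes, 5 libraries per genotype and age. *Gpi1*, *Pfkl* and *Vegfa* lie above 0 at E18 and near 0 after birth, while *Aplnr* lies above 0 at E14 and below 0 at E18.

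The same ages were compared for gene groups. The endothelial list had a median of 0.73 at E14 and −0.51 at E18, and after birth 0.06 (P7), 0.04 (P35) and 0.08 (P70). For the E18 value minus the mean of the others, 13 of 19 genes were lower at an unadjusted p under 0.05, against 781 (4.78%) of all tested genes. At E14, 15 of the 19 were higher and 0 lower at that threshold, against 1036 higher and 861 lower of all 16336 tested genes. Markers of other tissue also lay above 0 at E14, with a median of 1.51 for meninges and fibroblasts (14 of 17 higher at an unadjusted p under 0.05), 0.53 for blood and 0.29 for microglia (6 of 17 higher). Glycolysis had medians of 0.06, 0.13, 0.01, 0.03 and −0.000249 across the same ages, and for 9 of 23 genes the E18 log2 fold change exceeded the mean of those at the other ages at an unadjusted p under 0.05, and for 1 it was smaller, against 981 (6.01%) and 781 (4.78%) of all tested genes. Within E14, 4 of the 23 genes were higher and 1 lower at that threshold. Hypoxia-inducible genes had medians of 0.10, 0.13, 0.01, 0.04 and 0.05, and of 30 genes 1 exceeded the mean of the other ages and 1 was smaller at that threshold. Within E14, 3 of the 30 were higher and 0 lower. Of the 18 called genes, 7 had the same direction at E14, 15 at P7, 14 at P35 and 9 at P70. By edgeR, 1 of them was also called at P7 (*Mut*) and 0 at E14, P35 or P70.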

How the data were processed

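Polyadenylated RNA of 10 E18 frontal cortex libraries, 5 WT and 5 Het, was analyzed within the series of 50 libraries. The authors trimmed adapters with Trimmomatic, aligned read pairs to GRCm38 with STAR and counted them on exons with featureCounts 1.4.6-p2, counting a pair for every gene it overlapped and without regard to strand. The deposited values are raw counts for 55487 genes, with no normalization. Gene types and positions came from GENCODE vM21, which holds 55227 of them. RNA integrity numbers came from the supplement of the study and were used as an order and a covariate.

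Protein-coding genes kept by edgeR's filterByExpr (minimum count 10) over the 10 groups of age and genotype were tested, 16336 in all. Counts were scaled by TMM on protein-coding totals. The quasi-likelihood test of edgeR 4.0.16 (R 4.3.3, limma 3.58.1) was fitted to all 50 libraries with 1 mean per group. Contrasts were Het minus WT at E18, and that difference minus the mean of the differences at the 4 other ages. Standard errors were taken as the absolute log2 fold change over the square root of F. P-values were adjusted by the Benjamini-Hochberg method over all tested genes, and an adjusted p under 0.05 counts as called. For log2 CPM a prior count of 2 was added. A two-sided exact permutation test compared shares of counts over 252 splits, whose smallest p is 0.00794.

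Genes were named by rule: *Setd1a* and *Gm49388*, every called gene, called members of each list, up to 3 members of smallest unadjusted p and the most abundant member of lists without a call, the 5 genes of smallest p in the contrast with other ages, and some genes named by the study. The 39 lists (777 genes tested) and members were chosen with earlier results of these data known, and 3 further lists and the genes marked in the text were chosen after values were seen. The pipeline was tested on simulated data.

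Alternatives were DESeq2 1.42.0, limma-voom, other scalings, filters and thresholds, RNA integrity as a covariate or without its lowest libraries, a replicate block, loess correction for exon length (span 0.3), the E18 libraries alone and leaving out each library. A pair of them was added after seeing the data: leaving out the libraries with *Xist* counts, or the WT libraries with high *Ttr* counts. Python 3.11.15 and matplotlib 3.10.9 produced the figures.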

Additional observations from a re-analysis of the deposited data

Results flagged for a closer look

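Single libraries that lay far from the others of their group were looked for in 316 sets of 5 values, by the gap to the nearest library as a share of the whole range. Chance alone picks out about 1 in 20 such sets, and 22 (6.96%) were picked out. Of these, 6 concern WT replicate 2 and 4 Het replicate 4. WT replicate 2 was highest for *Xist* counts (share 1) and lowest for *Ddx3y* (0.985), *Kdm5d* (0.952), *Eif2s3y* (0.935) and the summed Y-linked counts (0.855), and highest for the ribosomal gene *Rplp1* (0.784). *Rplp1* was also highest in Het replicate 2 (0.827), and the Y-linked counts were also lowest in Het replicate 3 (0.722), where they remained at 5361.

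In WT libraries, replicate 4 was lowest for the cell cycle kinase *Cdk1* (0.868) and the synthetase gene *Hars2* (0.725) and highest for *Wdfy1* (0.88), and replicate 5 was lowest for the chaperone regulator *Bag3* (0.801) and the meningeal gene *Ptgds* (0.748). Among Het libraries, replicate 4 was highest for the called gene *Gbp3* (0.759), *Prox1* (0.832) and the choroid plexus gene *Kcne2* (0.714) and lowest for *Tbr1* (0.749), a deep layer factor. Replicate 5 was lowest for *Pcp4* (0.752) and highest for *Nlrp12* (0.953) and *Folr1* (1), the latter with 0, 0, 0, 0 and 1 counts across the group. Replicate 2 was lowest for *Ptgds* (0.745), and replicate 3 was highest for *Wnt8b* (1), on 2 counts.

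A difference between ages was found for 6 genes, as the E18 log2 fold change minus the mean of those at the other 4 ages: −2.47 for *Aplnr*, −2.25 for *Ltb*, −1.30 for *Mmp28*, 0.82 for *Col11a2*, 0.46 for *Tmem25* and 0.32 for *Gpi1*.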

How the results depend on the processing

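None of the 18 called genes changed direction in any alternative in which it was tested (23 to 26 of 26), and 260 of their 456 values passed and the others kept their direction but did not pass. Of the 136 other named genes, 25 had values on both sides of 0, such as *Ptgds* (0.56, with −0.56 to 0.96) and *Zic1* (−0.05, with −0.29 to 0.39), 10 passed under some alternative (31 values) and 28 values moved beyond the spread between replicates. Below, the first count is of genes called at E18 (18 as reported) and the second of genes whose E18 difference was unlike the other ages (6 as reported). The cause of each change was not tested, except where fewer genes, fewer libraries or another threshold makes it plain.

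With DESeq2 the counts were 111 and 93, and with limma-voom 10 and 3. DESeq2 size factors gave 19 and 6, scaling by library size only 18 (13 lower, 5 higher) and 2, no filter 18 and 6, a minimum of 10 CPM in 5 libraries 7 and 3, and all annotated genes 17 and 2. Loess correction for exon length gave 30 and 5. With RNA integrity as a covariate they were 1 and 0 (edgeR, with 972 and 806 genes at an unadjusted p under 0.05), and without the 3 Het libraries of lowest integrity 5 and 3. The E18 libraries alone gave 0 by edgeR (1827 unadjusted), and with RNA integrity 0 (874 unadjusted). The contrast with other ages could not be fitted to the E18 libraries alone. An adjusted p under 0.01 gave 3 and 0, and under 0.10 74 and 41. Chosen after seeing the data, leaving out the WT libraries with *Xist* counts at E14 and E18 gave 77 and 284, and leaving out WT replicates 3 and 4, with high *Ttr* counts, gave 8 and 0 (edgeR, 820 unadjusted).

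With 1 library left out, the E18 count ran from 7 (without Het replicate 2) to 55 (without WT replicate 2), and was 8 without WT replicate 4, 10 without Het replicate 4 or 5 and 31 without WT replicate 5. The second count ran from 0 by edgeR (without WT replicate 3 or Het replicate 4, 1334 and 1801 unadjusted) to 89 (without WT replicate 2), and was 84 without WT replicate 5 and 1 without Het replicate 2 or 5. The mitochondrial share of counts differed by 0.0161 to 0.0705 points and that of the 100 most abundant genes by 0.159 to 0.372 points.

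Replicate numbers were not used as pairs, since nothing in the labels ties a WT to a Het sample of the same number. Pearson's r between same-numbered WT and Het deviations was 0.20, 0.07, 0.29, 0.19 and −0.18 (3 of 5 over 0.1), across genes, which are not independent replicates, and 3 of 10 libraries correlated best with their own number. A block for these numbers gave 37, with 13 of the 18 among them, and 17, and with RNA integrity 2 and 0 (edgeR, 1459 unadjusted).

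There were 5 embryos per group, and how each was dissected was not recorded in the labels. *Ltb* and *Wnt8b* had few counts. Sex, RNA integrity and choroid plexus content each went with some libraries of a single genotype, and their parts in the results were not tested beyond the fits above. The counts do not resolve the deleted part of *Setd1a* or near-identical zinc finger genes.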

Other observations

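Genes induced by interferon formed a group that the chosen lists did not cover. A list of 46 such genes was written after *Gbp3* and *Rnf213* had been seen, so its counts are a description. Of 45 tested, 2 were called (lower, *Gbp3* and *Rnf213*). At an unadjusted p under 0.05, 28 including these 2 were lower and 1 was higher (64.4%, against 11.4% of all tested genes). In all, 43 lay below 0, with a median log2 fold change of −0.59 against 0.02 over all tested genes. *Isg15*, a ubiquitin-like protein of the antiviral response, had 1.67, 1.74, 4.61, 4.47 and 3.02 CPM in WT and 1.77, 0.842, 1.62, 2.06 and 1.596 CPM in Het libraries, and *Rsad2*, the antiviral protein viperin, had 0.862, 0.666, 2.38, 2.41 and 1.02 CPM in WT and 0.677, 0.571, 0.731, 0.765 and 0.239 CPM in Het libraries. WT replicates 3 and 4 were highest for both genes, and neither passed (log2 fold changes −0.97 and −1.29, adjusted p = 0.0879 and 0.0835, edgeR). The summed level of the list was 234, 205.9, 341, 324 and 201.8 CPM in WT and 207, 167, 216, 231 and 191 CPM in Het libraries, led by *Stat2* (18.7%). Without WT replicates 3 and 4, 3 genes were lower at an unadjusted p under 0.05 and the median was −0.20. With RNA integrity as a covariate 12 were lower with a median of −0.51. At E14 the median was 0.33, with 15 higher and 0 lower, against 1036 and 861 of all tested genes.

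The ligands and receptors of vessel growth lay on both sides of 0, by a list of 20 genes also written after values were seen. *Vegfa* was called as higher and *Aplnr* as lower. At an unadjusted p under 0.05, 6 genes were lower and 2 higher (40%, against 11.4% of all tested genes), and the median was −0.33. Without WT replicates 3 and 4, 0 were called by edgeR, 4 were lower and 1 higher at an unadjusted p under 0.05, and the median was −0.15. DESeq2 called 5 of the 20 in all libraries and limma-voom 1. Among ligands, log2 fold changes were 0.17 for *Vegfb*, 0.23 for *Apln*, −0.70 for *Angpt2* and −0.37 for *Pgf*, and among receptors −0.60 for *Kdr*, −0.47 for *Flt4*, −0.09 for *Flt1* and −0.21 for *Nrp2*, none of which passed. Genes of the cortical hem and dorsomedial pallium, the source of Wnt signals at the medial edge of the cortex, were collected after *Wnt8b* was seen. Their counts are therefore a description. Of 18 genes, *Wnt8b* was the 1 called, and 11 including it were lower at an unadjusted p under 0.05 (61.1%, against 5.29% of all tested genes). At that threshold 0 of these genes were higher, and 16 of the 18 lay below 0, with a median of −0.45. Their summed level was 249.8, 262, 253, 346 and 284 CPM in WT and 229, 183, 181, 220.04 and 267 CPM in Het libraries, led by *Lhx2* (36.6%). *Rspo1*, which strengthens Wnt signals, had 0.862, 0.845, 0.326, 2.41 and 1.80 CPM in WT and 0.495, 0.272, 0.650, 0.311 and 0.505 CPM in Het libraries (log2 fold change −1.48, adjusted p = 0.0791, edgeR), and like *Wnt8b* it was highest in WT replicates 4 and 5. Without WT replicates 3 and 4, 8 of the 18 were lower with a median of −0.35. How closely the medial edge was dissected in each embryo was not recorded in the labels.

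Just outside the threshold, *Phlda3*, a p53 target that restrains AKT, had a log2 fold change of 0.33 (SE 0.0845, adjusted p = 0.0914, edgeR), and *Ptgs2*, the inducible cyclooxygenase of active neurons, had 0.627, 0.154, 0.977, 0.505 and 0.0749 CPM in WT and 0.104, 0.0272, 0.135, 0.263 and 0.0266 CPM in Het libraries (adjusted p = 0.0678, edgeR). *Gm26992*, whose exonic bases overlap *Xist*, had −7.89 (adjusted p = 0.0582, edgeR), and −0.47 without WT replicate 2. The SD of log2 deviations from the group mean was largest in WT replicate 5 (0.477) and smallest in Het replicate 1 (0.283).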
